A study of Mus musculus with 25 samples.

Results

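The 9 genes described here stop the cell cycle or answer to the tumour suppressor p53: *Gadd45a*, *Gadd45b*, *Gadd45g*, *Cdkn1a*, *Cdkn1b*, *Cdkn2c*, *Cdkn2d*, *Mdm2* and *Ccng1*. They were taken from the probe annotation, as the probe sets whose only gene symbol is one of these names, with the brightest of a gene's probe sets over all 25 arrays standing for the gene. All 9 had a probe set among 17097 named genes, and all 9 passed the filter on dim genes, which kept 11968. The members have 14 probe sets together, with 3 for *Ccng1* and 2 each for *Cdkn1a*, *Cdkn1b* and *Mdm2*.

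The arrays measured ribosome-bound RNA from kidney podocytes of mice, epithelial cells that line the outside of the glomerular capillaries, obtained by translating ribosome affinity purification (TRAP). Knock-in mice (KI) carry Actn4tm1.1Plk, a point mutation in the gene of the actin crosslinker alpha-actinin-4, and control mice (WT) do not. All 6 groups share the transgene Col1a1-eGFPL10a, a tagged ribosomal protein, and the strain C57/129sv. There were 4 KI and 4 WT arrays at 2 weeks (labelled postnatal day 14), 4 KI and 5 WT arrays at 5 weeks (day 35), and 4 KI and 4 WT arrays at 44 weeks (day 300). The sources differ slightly on that oldest age: the array titles call it 10 months, and the 44 weeks used here come from the series' design text. The tag is driven by a collagen 1α1 promoter element, so other cells in which that element is active can contribute ribosomes. Sex is labelled unknown, the sources used here do not give the number of mutant alleles in a KI mouse, and nothing in the labels ties each array to an animal of its own. The p-values below therefore measure the spread between these arrays, which may be technical in part. *Actn4* has no named probe set here, so the genotype labels were not checked on it. Values are log2 signals, and a difference of 1 is a doubling.

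A cell leaves the cycle when its cyclin-dependent kinases are held back by inhibitor proteins. The Cip/Kip inhibitors, among them p21 (*Cdkn1a*) and p27 (*Cdkn1b*), bind kinase and cyclin together, and the Ink4 inhibitors, among them *Cdkn2c* and *Cdkn2d*, bind the kinases of the D-type cyclins. The Gadd45 proteins are small stress sensors that bind the replication clamp PCNA, p21 and the kinase Map3k4. p53 switches on *Cdkn1a*, *Gadd45a*, *Mdm2* and *Ccng1*; the Mdm2 protein in turn marks p53 for degradation, and cyclin G1 brings a phosphatase to Mdm2. Mature podocytes are known as cells that have left the cycle and that hold Cip/Kip inhibitors.

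Promoter windows of the 9 members, the 250 bases before each annotated start, were read from RefSeq (GRCm38.p6). Printed are 5 windows, of members whose values moved most or that are best known as p53 targets. That choice is by gene, and sites outside these 250 bases were not searched. All are written 5′ to 3′ on the gene's own strand, and capitals mark motif matches: the TATA box (TATAAA), the CCAAT box (CCAAT), the GC box (GGGCGG), the E-box (CACGTG) and the p53 response element half-site, each searched on both strands. They lie at chr13:51846425-51846674 on the plus strand (*Gadd45g*), chr10:80929841-80930090 on the plus strand (*Gadd45b*), chr6:67037408-67037657 on the minus strand (*Gadd45a*), chr17:29090729-29090978 on the plus strand (*Cdkn1a*) and chr10:117710759-117711008 on the minus strand (*Mdm2*).
Gadd45g: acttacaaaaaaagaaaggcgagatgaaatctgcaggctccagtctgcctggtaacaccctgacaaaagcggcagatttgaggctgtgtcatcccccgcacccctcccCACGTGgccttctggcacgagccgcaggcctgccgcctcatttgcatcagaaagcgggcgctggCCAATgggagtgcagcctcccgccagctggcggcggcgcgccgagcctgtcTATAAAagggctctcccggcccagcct
Gadd45b: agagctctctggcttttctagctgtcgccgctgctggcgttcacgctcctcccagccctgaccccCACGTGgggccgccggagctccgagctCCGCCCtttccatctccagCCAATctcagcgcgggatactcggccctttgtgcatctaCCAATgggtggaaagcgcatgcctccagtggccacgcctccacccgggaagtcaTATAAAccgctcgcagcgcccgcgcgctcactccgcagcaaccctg
Gadd45a: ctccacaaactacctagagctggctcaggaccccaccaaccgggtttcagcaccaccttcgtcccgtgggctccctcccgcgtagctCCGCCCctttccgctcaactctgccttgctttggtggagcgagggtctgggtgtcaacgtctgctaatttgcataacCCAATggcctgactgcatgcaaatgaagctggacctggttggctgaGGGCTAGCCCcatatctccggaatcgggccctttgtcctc
Cdkn1a: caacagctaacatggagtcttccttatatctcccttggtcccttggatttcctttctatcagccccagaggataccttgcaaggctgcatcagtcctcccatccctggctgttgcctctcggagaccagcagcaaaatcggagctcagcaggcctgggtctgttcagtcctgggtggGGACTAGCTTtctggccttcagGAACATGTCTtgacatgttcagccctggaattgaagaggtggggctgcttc
Mdm2: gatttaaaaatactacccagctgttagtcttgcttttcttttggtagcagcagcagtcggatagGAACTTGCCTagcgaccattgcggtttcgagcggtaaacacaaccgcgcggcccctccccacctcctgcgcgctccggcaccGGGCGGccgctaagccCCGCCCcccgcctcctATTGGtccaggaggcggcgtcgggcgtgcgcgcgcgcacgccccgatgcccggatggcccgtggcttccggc

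The 9 members have 11 windows, with 2 each for *Cdkn1a* and *Cdkn2c*. Members are counted below if any of their windows held a match, while the shares of all genes are per window. A p53 half-site match stood in the windows of 5 of 9 members (*Gadd45a*, *Cdkn1a*, *Cdkn2d*, *Mdm2* and *Ccng1*), against 7.13% of the 32851 windows of all genes. The *Cdkn1a* window held 2 of them, GGACTAGCTT and GAACATGTCT, at chr17:29090906-29090915 and chr17:29090928-29090937, and the second lies 2832 bases before a downstream start of the same gene. *Gadd45b* and *Gadd45g* held no half-site match; they were the only 2 members with a TATA box (12.4% of all windows) and the only 2 with an E-box (6.02%). A CCAAT box stood in 7 members (33.8% of all windows), a GC box in 7 (32.7%) and a cAMP response element, TGACGTCA, in 0 (1.55%). The GC boxes of *Cdkn1a* lie in its other window, which is not printed. None of the capitals overlap in the printed windows; in *Cdkn2d*, not printed, a GC box and the half-site share 2 bases. A match describes the letters only, and whether p53 binds there was not tested.

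Facts of the whole series bear on these values. Podocyte markers (10 of 12 with a probe set, all 10 above the filter limit) averaged 10.70 in KI and 10.84 in WT at 2 weeks. The same means were 11.14 in KI and 11.36 in WT at 5 weeks, then 11.23 in KI and 11.34 in WT at 44 weeks. RNA of other kidney cells was present in every group. The largest gaps between genotypes were at 5 weeks, where the marker means in KI and WT were 10.57 and 9.75 for proximal tubule, 7.90 and 7.20 for loop, distal tubule and collecting duct, 7.33 and 6.46 for endothelium, and 8.18 and 7.30 for mesangium and smooth muscle. In WT at 5 weeks, arrays 7, 8 and 9 had mesangial means of 6.60, 6.97 and 7.14, against 7.93 and 7.86 in arrays 6 and 10. Results of the 9 members that changed without these 3 arrays are given with and without them, and those of the other gene lists as counts. Leaving them out keeps only arrays 6 and 10 for WT at 5 weeks. A call lost in that fit can therefore come from having fewer arrays, which cannot be told apart from the values of these 3 arrays. Y-linked genes were high in 1 of 4 KI arrays against 4 of 4 WT arrays at 2 weeks. At 5 weeks this was 3 of 4 KI against 2 of 5 WT arrays, and at 44 weeks 3 of 4 KI against 1 of 4 WT arrays. Measures of RNA integrity also differed with genotype, but not together. The Gapdh 3′ minus 5′ signal did not overlap between genotypes at 2 weeks (1.06 to 1.45 in KI, 1.55 to 1.84 in WT). The actin 3′ minus 5′ signal did not overlap at 5 weeks (0.99 to 1.33 in KI, 1.47 to 1.63 in WT). Each overlapped at the other ages. At 5 weeks the actin signal averaged lower in KI (1.17 against 1.52 in WT), while the Gapdh signal averaged higher (1.48 against 1.22). At 2 weeks the actin signal averaged 1.16 in KI and 1.19 in WT. In bulk RNA of this kind, fewer cells of a type and less RNA per cell cannot be told apart.

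*Gadd45g*, *Cdkn1a* and *Gadd45b* moved most across the 6 groups, and *Cdkn1b* moved least. The highest and lowest group mean of *Cdkn1a* lay 3.00 apart on the log2 scale, a wider range than in 98.7% of the genes kept. The range was 2.58 for *Gadd45g* (wider than in 97.8%) and 1.98 for *Gadd45b* (95%). It was 0.80 for *Gadd45a*, 0.74 for *Cdkn2c*, 0.63 for *Cdkn2d*, 0.52 for *Mdm2*, 0.49 for *Ccng1* and 0.33 for *Cdkn1b*, the last wider than in 14.5% of genes. The plot of every array shows all 9 genes by group.

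**Figure D1:**
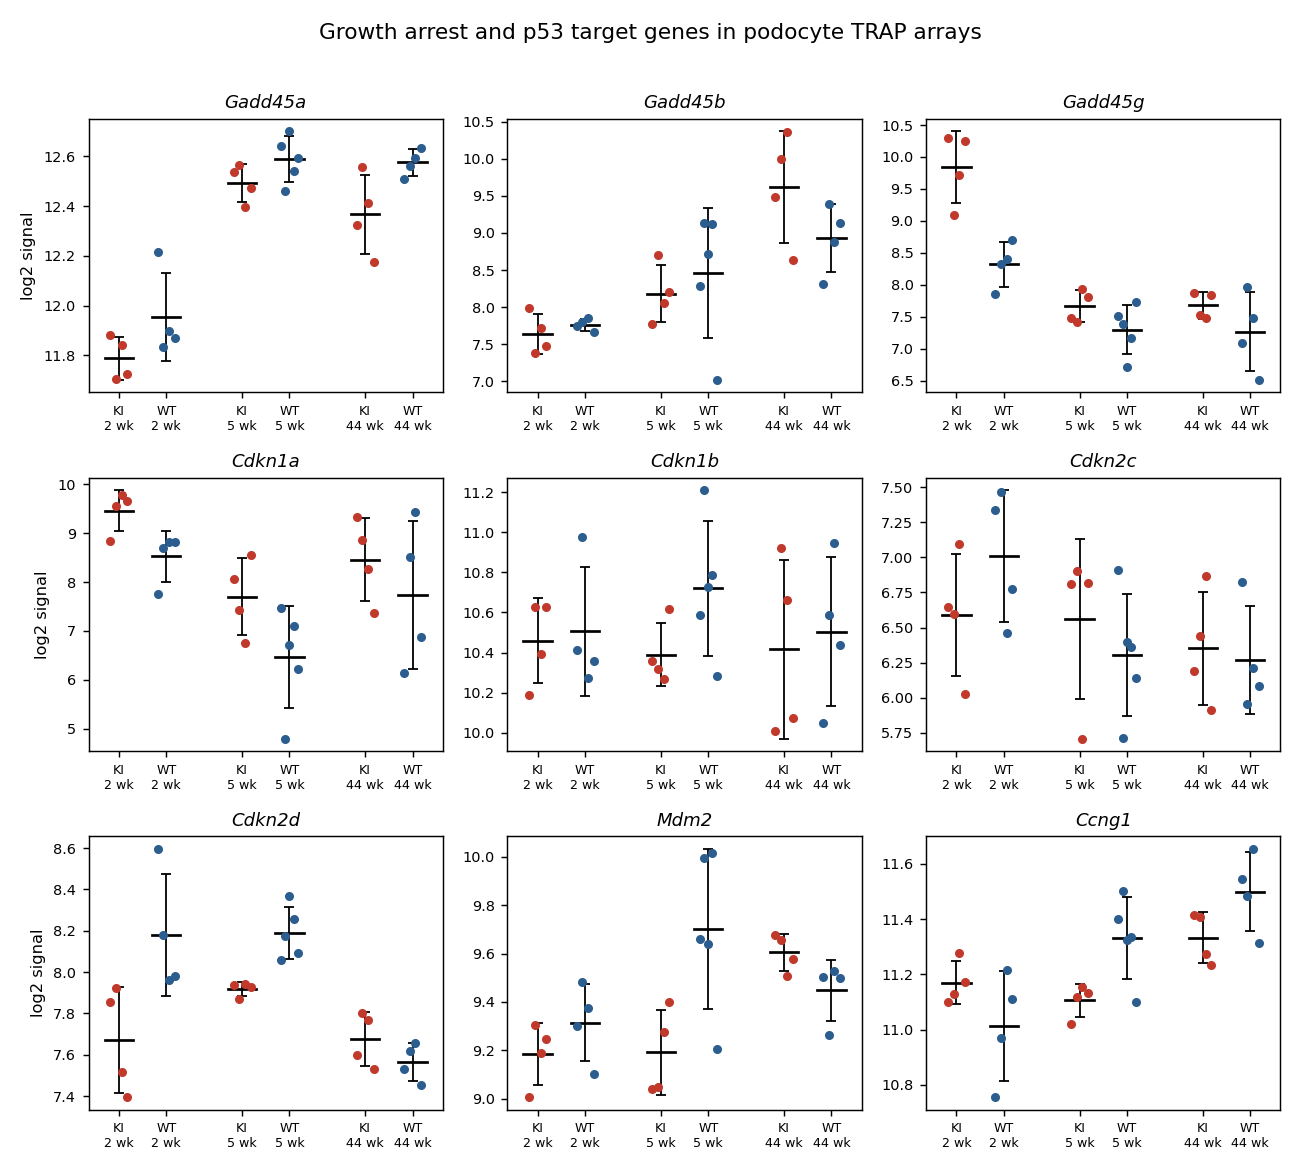
Log2 signal of each of the 9 genes (y axes differ between panels) in every array, KI in red left of WT in blue at 2, 5 and 44 weeks; the long bar is the group mean and the whiskers are 1 SD (n = 4, and 5 for WT at 5 weeks). *Gadd45g* stands highest in the 4 KI arrays at 2 weeks (9.09 to 10.30), and *Gadd45a* stands lower at 2 weeks than at the later ages in both genotypes.

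*Gadd45g*, which encodes the Gadd45 protein known for its response to cytokines, was highest at 2 weeks and in KI. At 2 weeks its log2 signal was 10.30, 9.09, 9.71 and 10.25 in KI, against 7.86, 8.32, 8.40 and 8.70 in WT. At 5 weeks it was 7.48, 7.42, 7.94 and 7.81 in KI, against 7.50, 7.38, 6.71, 7.16 and 7.74 in WT. At 44 weeks it was 7.87, 7.52, 7.47 and 7.84 in KI, against 7.09, 7.97, 7.48 and 6.51 in WT. All 4 KI arrays lay above all WT arrays at 2 weeks, and the genotypes overlapped at both later ages. The difference of KI minus WT at 2 weeks was 1.52 ± 0.28 (SE; 95% interval 0.93 to 2.11), which is 2.87-fold. It had the smallest p of all 11968 genes in that comparison (2.15e-05), yet its limma adjusted p of 0.257 did not pass 0.05. Without KI array 20, the lowest KI array, the difference was 1.77 and passed (adjusted p = 0.0314); with any other single array left out it did not pass. Array 20 was also the only KI array of 2 weeks with high Y-linked genes, while all 4 WT arrays had them high, so without it the KI and WT arrays differ fully in these genes. With the mean of the Y-linked genes as a covariate the 2-week difference was 1.26 (adjusted p = 0.229), and with the mean of the tubule markers it was 1.47 (0.987). The Gapdh 3′ minus 5′ signal, too, did not overlap between the genotypes at 2 weeks.

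Averaged over the ages, *Gadd45g* rose by 0.77 ± 0.16 in KI against WT (limma adjusted p = 0.0193), the only member called in that average, where 5.32% of all genes were called, 3.99% higher and 1.33% lower. The single ages contributed differences of 1.52, 0.37 ± 0.27 and 0.41 ± 0.28 at 2, 5 and 44 weeks. The average no longer passed without WT arrays 7, 8 and 9 of 5 weeks (0.66, adjusted p = 0.158) or with the tubule marker covariate (0.72, 0.901); it held over each single array left out (0.68 to 0.85). Whether the genotype difference itself shrank with age was tested as an interaction: it was 1.16 smaller at 5 than at 2 weeks (-1.16 ± 0.39, adjusted p = 0.137) and did not pass.

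With age, *Gadd45g* fell in both genotypes. KI arrays averaged 7.66 ± 0.25 at 5 weeks against 9.84 ± 0.56 at 2 weeks (SD, n = 4 each), a difference of -2.18 ± 0.28 (SE, limma adjusted p = 8.52e-05). WT arrays averaged 7.30 ± 0.39 (n = 5) at 5 weeks against 8.32 ± 0.35 (n = 4) at 2 weeks, a difference of -1.02 ± 0.27 (adjusted p = 0.00593). The arrays of the ages did not overlap in either genotype. From 5 to 44 weeks both genotypes stayed within their spread (0.01 in KI and -0.03 in WT). The fall in WT was not called without WT arrays 7, 8 and 9 (-0.70, adjusted p = 0.2) or with the Gapdh 3′ minus 5′ signal, a measure of RNA integrity, as a covariate (-0.78, 0.0723). That signal averaged 1.22 at 5 weeks and 1.66 at 2 weeks in WT. The actin 3′ minus 5′ signal went the other way in WT, at 1.52 and 1.19.

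*Gadd45a*, the Gadd45 gene most directly under p53, rose between 2 and 5 weeks in both genotypes. At 2 weeks it was 11.88, 11.70, 11.84 and 11.72 in KI, against 12.22, 11.83, 11.90 and 11.87 in WT. The 5-week values were 12.54, 12.57, 12.40 and 12.47 in KI, against 12.64, 12.46, 12.70, 12.54 and 12.59 in WT. The 44-week values were 12.32, 12.56, 12.41 and 12.18 in KI, against 12.51, 12.56, 12.60 and 12.63 in WT. The 5-week arrays lay above all 2-week arrays of their genotype. The rise from 2 weeks was 0.71 ± 0.10 in KI (limma adjusted p = 0.00013) and 0.64 ± 0.09 in WT (4.74e-05), and the levels at 44 weeks were still 0.58 ± 0.10 and 0.62 ± 0.10 above those at 2 weeks (0.000144 and 5.2e-05). These 4 age differences passed under all 13 alternatives and with each array left out in turn. Between the genotypes *Gadd45a* differed by -0.16 ± 0.10 at 2, -0.09 ± 0.09 at 5 and -0.21 ± 0.10 at 44 weeks, none of which passed, and by -0.16 ± 0.05 on average (adjusted p = 0.0816).

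Both genes moved with podocyte markers over age. Over the 25 arrays the podocyte marker mean had a Pearson correlation of 0.88 with *Gadd45a* and -0.81 with *Gadd45g*, and the 2 genes had -0.86 with each other. Within groups, after each group's mean was taken out, these were 0.23, -0.13 and -0.34. The arrays share groups, ages and purification, so the values only describe these arrays. At 5 against 2 weeks, 10 of 10 podocyte markers were called higher in WT and 4 of 10 in KI; the part of podocyte share in the 2 genes' age differences was not tested.

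**Figure D2:**
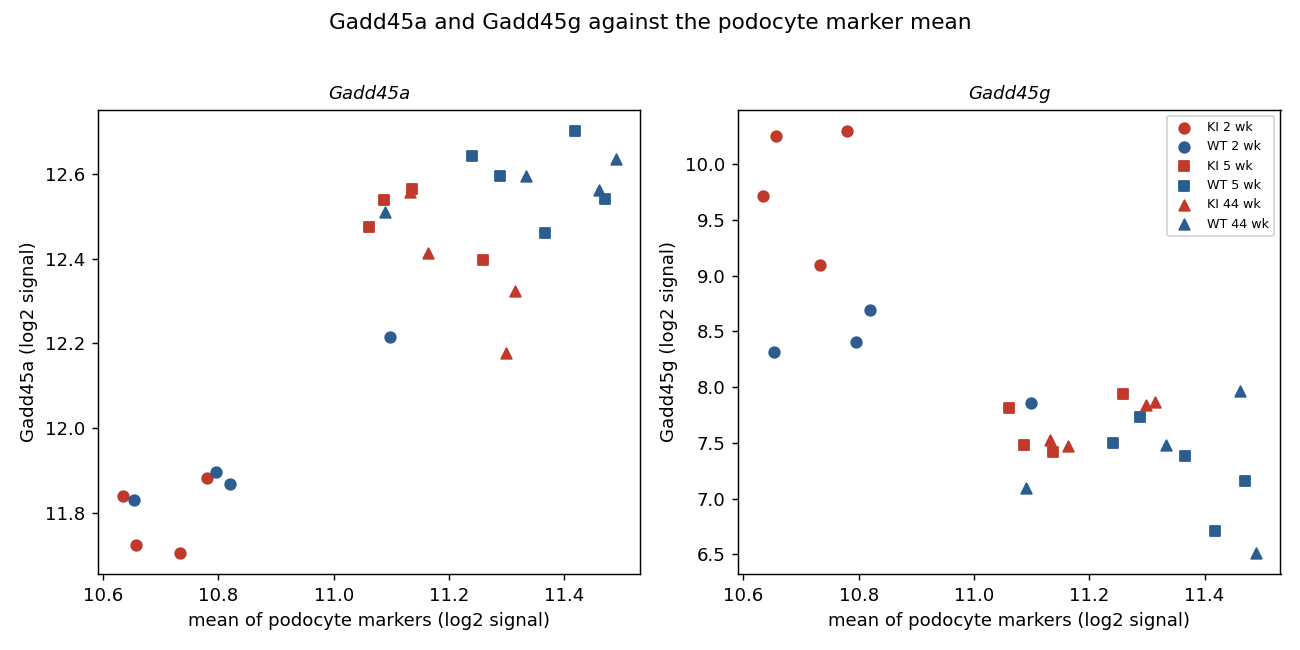
Log2 signal of *Gadd45a* (left) and *Gadd45g* (right) against the mean log2 signal of 10 podocyte markers, 1 point per array, KI red and WT blue, circles 2 weeks, squares 5 weeks and triangles 44 weeks. The 2-week arrays sit low in *Gadd45a* and high in *Gadd45g*; WT array 1 of 2 weeks, with a marker mean of 11.10, lies nearest to the later ages in both.

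*Gadd45b*, the Gadd45 gene known as a target of NF-κB and TGF-β signalling, climbed with age. At 2 weeks it was 7.99, 7.39, 7.72 and 7.48 in KI, against 7.75, 7.80, 7.85 and 7.66 in WT. At 5 weeks it was 7.77, 8.70, 8.05 and 8.21 in KI, against 8.29, 9.14, 8.72, 9.12 and 7.02 in WT. At 44 weeks it was 9.49, 9.99, 10.37 and 8.63 in KI, against 8.32, 9.40, 8.88 and 9.14 in WT. The 44-week arrays lay above all 2-week arrays in both genotypes, and WT array 10 at 5 weeks had the lowest value of all 25. At 44 against 2 weeks *Gadd45b* rose by 1.98 ± 0.38 in KI (limma adjusted p = 0.000515) and by 1.17 ± 0.38 in WT (0.021). Most of the KI change lay between 5 and 44 weeks (1.44 ± 0.38, adjusted p = 0.013), where WT differed by 0.47 ± 0.36 (0.361). The WT call was lost without WT array 16 or 18 of 44 weeks, with adjusted p up to 0.0659, and with the actin 3′ minus 5′ covariate (0.95, 0.0559). The KI call at 44 against 5 weeks was lost without KI array 33, the highest (1.19, adjusted p = 0.0554).

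Between genotypes *Gadd45b* did not pass at any age. The difference of KI minus WT was -0.12 ± 0.38 at 2 weeks, -0.27 ± 0.36 at 5 weeks and 0.69 ± 0.38 at 44 weeks, where 3 KI arrays lay above all WT arrays and 1 below 3 of them. The change of this difference between 5 and 44 weeks was 0.96 ± 0.52 (limma adjusted p = 0.31). It passed without WT array 10 of 5 weeks (1.32, adjusted p = 0.0408).

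*Cdkn1a*, the gene of the kinase inhibitor p21 and the classic p53 target, was higher on average in KI at every age, with wide spread. At 2 weeks it was 8.84, 9.56, 9.79 and 9.66 in KI, against 7.75, 8.70, 8.82 and 8.82 in WT. The values at 5 weeks were 8.07, 7.43, 6.74 and 8.55 in KI, against 7.47, 4.79, 6.72, 7.10 and 6.21 in WT. The values at 44 weeks were 9.34, 8.87, 8.26 and 7.37 in KI, against 6.13, 8.51, 9.44 and 6.87 in WT. Every KI array stood above every WT array at 2 weeks, though the lowest in KI (8.84) and the highest in WT (8.82) were close, and the genotypes overlapped at 5 and 44 weeks. KI minus WT was 0.94 ± 0.62 at 2, 1.24 ± 0.58 at 5 and 0.72 ± 0.62 at 44 weeks, with limma adjusted p of 0.893, 0.125 and 0.922. The average over ages was 0.97 ± 0.35, which is 1.95-fold, and did not pass either (adjusted p = 0.0912). It passed with array weights (adjusted p = 0.0205). The gene's dimmer probe set gave smaller differences, 0.74, 0.25 and 0.46 at 2, 5 and 44 weeks and 0.48 on average (adjusted p = 0.0938).

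*Cdkn1a* fell between 2 and 5 weeks in WT. WT arrays averaged 6.46 ± 1.04 (SD, n = 5) at 5 weeks against 8.52 ± 0.52 (n = 4) at 2 weeks, a difference of -2.06 ± 0.58 (SE, limma adjusted p = 0.00947). KI arrays averaged 7.70 ± 0.78 at 5 weeks against 9.46 ± 0.42 at 2 weeks (n = 4 each), a difference of -1.76 ± 0.62 that just missed the threshold (adjusted p = 0.0595). The ages did not overlap in either genotype. The gene's dimmer probe set followed the brighter one over the arrays (r = 0.87) and gave -0.57 (adjusted p = 0.143) in WT and -1.07 (0.0255) in KI, so which genotype passed depended on the probe set. The WT call was also lost without WT arrays 7, 8 and 9 (-1.68, adjusted p = 0.144), and with the actin 3′ minus 5′ covariate (-1.38, 0.0951). The actin signal averaged 1.52 at 5 weeks and 1.19 at 2 weeks in WT, while the Gapdh signal went the other way (1.22 and 1.66). At 44 against 5 weeks the differences were 0.76 ± 0.62 in KI and 1.28 ± 0.58 in WT, and neither passed; without WT array 15 of 44 weeks the WT difference was 1.81 and passed (adjusted p = 0.0393).

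*Cdkn1b*, the gene of the inhibitor p27, was the flattest member. Its arrays ran from 10.19 to 10.63 in KI and 10.27 to 10.98 in WT at 2 weeks, 10.27 to 10.62 and 10.28 to 11.21 at 5 weeks, and 10.01 to 10.92 and 10.05 to 10.94 at 44 weeks. All groups overlapped, and no group mean lay further from its neighbour in rank than the larger SD of the pair. The largest difference, KI minus WT at 5 weeks, was -0.33 ± 0.21 (limma adjusted p = 0.251). Its second probe set was called higher in WT at 5 against 2 weeks (0.76, adjusted p = 0.0207), where the brighter one gave 0.21 ± 0.21.

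The Ink4 gene *Cdkn2c*, whose product p18Ink4c blocks the kinases Cdk4 and Cdk6, passed in no comparison. Its arrays ran from 6.03 to 7.09 in KI and 6.46 to 7.47 in WT at 2 weeks, 5.71 to 6.90 and 5.71 to 6.91 at 5 weeks, and 5.91 to 6.87 and 5.96 to 6.82 at 44 weeks. The genotypes overlapped at every age. In WT the differences against 2 weeks were -0.70 ± 0.29 at 5 weeks and -0.74 ± 0.30 at 44 weeks (limma adjusted p = 0.0626 and 0.0661). Within groups it had a correlation of 0.61 with the mean of 18 proliferation genes, 15 of them above the filter limit, over the 25 arrays.

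*Cdkn2d*, whose product p19Ink4d is another Ink4 inhibitor, separated the genotypes at the first 2 ages. At 2 weeks it was 7.86, 7.92, 7.52 and 7.39 in KI, against 8.60, 8.18, 7.96 and 7.98 in WT. At 5 weeks it was 7.94, 7.87, 7.94 and 7.93 in KI, against 8.06, 8.17, 8.37, 8.26 and 8.09 in WT. At 44 weeks it was 7.60, 7.80, 7.77 and 7.53 in KI, against 7.53, 7.62, 7.66 and 7.45 in WT. All KI arrays lay below all WT arrays at 2 and at 5 weeks, where 2.9% and 12% of all genes did not overlap, and the genotypes overlapped at 44 weeks. At 2 weeks the highest in KI (array 20, 7.92) and the lowest in WT (7.96) were close. Array 20 was the only KI array of 2 weeks with high Y-linked genes, which all 4 WT arrays had high. The Gapdh 3′ minus 5′ signal did not overlap between the genotypes at that age either. KI minus WT was -0.51 ± 0.13 at 2 weeks, the 9th smallest p of all genes there (0.000826, limma adjusted 0.893), -0.27 ± 0.12 at 5 weeks (adjusted p = 0.116) and 0.11 ± 0.13 at 44 weeks (0.952). With quantile normalization or arrays centred on their medians the 5-week difference was -0.38 or -0.47 and passed (adjusted p = 0.0461 and 0.0198).

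With age *Cdkn2d* fell in WT, and its differences in KI did not pass the test. In WT it was lower at 44 than at 5 weeks by -0.63 ± 0.12 (limma adjusted p = 0.0018) and lower at 44 than at 2 weeks by -0.61 ± 0.13 (0.00116). In KI the same differences were -0.24 ± 0.13 (0.208) and 0.00 ± 0.13 (0.987). All 4 KI arrays at 44 weeks (7.53 to 7.80) nevertheless lay below all 4 KI arrays at 5 weeks (7.87 to 7.94), in a comparison where 25.8% of all genes did not overlap. The test of the difference itself, the genotype effect at 44 minus 2 weeks, was 0.62 ± 0.19 with an adjusted p of 1.00, so a difference between genotypes in this change was not shown. Without WT arrays 7, 8 and 9 the fall from 5 to 44 weeks in WT was -0.51 (adjusted p = 0.0633). Over the 25 arrays *Cdkn2d* had a correlation of -0.65 with the loop, distal and collecting duct marker mean and -0.24 within groups; the part of tubule RNA in it was not tested beyond the covariate fit, which gave -0.51 for the WT fall (adjusted p = 0.03).

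*Mdm2*, the gene of the ubiquitin ligase that holds p53 down, was the only member called between genotypes at 5 weeks, where 22% of all genes were called, 14.3% higher and 7.75% lower. At 2 weeks it was 9.00, 9.30, 9.19 and 9.25 in KI, against 9.30, 9.48, 9.37 and 9.10 in WT. The 5-week signal was 9.04, 9.05, 9.28 and 9.40 in KI, against 9.66, 9.99, 9.64, 10.02 and 9.20 in WT. The 44-week signal was 9.68, 9.66, 9.51 and 9.58 in KI, against 9.50, 9.26, 9.53 and 9.50 in WT. At 5 weeks 4 WT arrays lay above all KI arrays and WT array 10 lay among them. The difference was -0.51 ± 0.13 (limma adjusted p = 0.0118), which is 1.43-fold lower in KI. It was not called without WT arrays 7, 8 and 9 (-0.24, adjusted p = 0.506), with the tubule marker covariate (-0.35, 0.344) or when only the 5-week arrays were fitted (0.0911). The actin 3′ minus 5′ signal of RNA integrity, too, did not overlap between the genotypes at 5 weeks.

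The call also depended on the probe set of *Mdm2*. A dimmer probe set had a correlation of 0.16 with the brighter one over the 25 arrays and was higher in KI at 5 weeks (0.47, limma adjusted p = 0.0256), the opposite direction. It averaged 6.56 ± 0.16 in KI and 6.60 ± 0.15 in WT at 44 weeks (SD, n = 4 each), against 5.23 ± 0.19 in KI and 5.28 ± 0.09 in WT at 2 weeks (n = 4 each). The mean of both probe sets gave -0.02 for KI minus WT at 5 weeks (adjusted p = 0.885). Which transcripts each probe set reads was not analysed here.

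**Figure D3:**
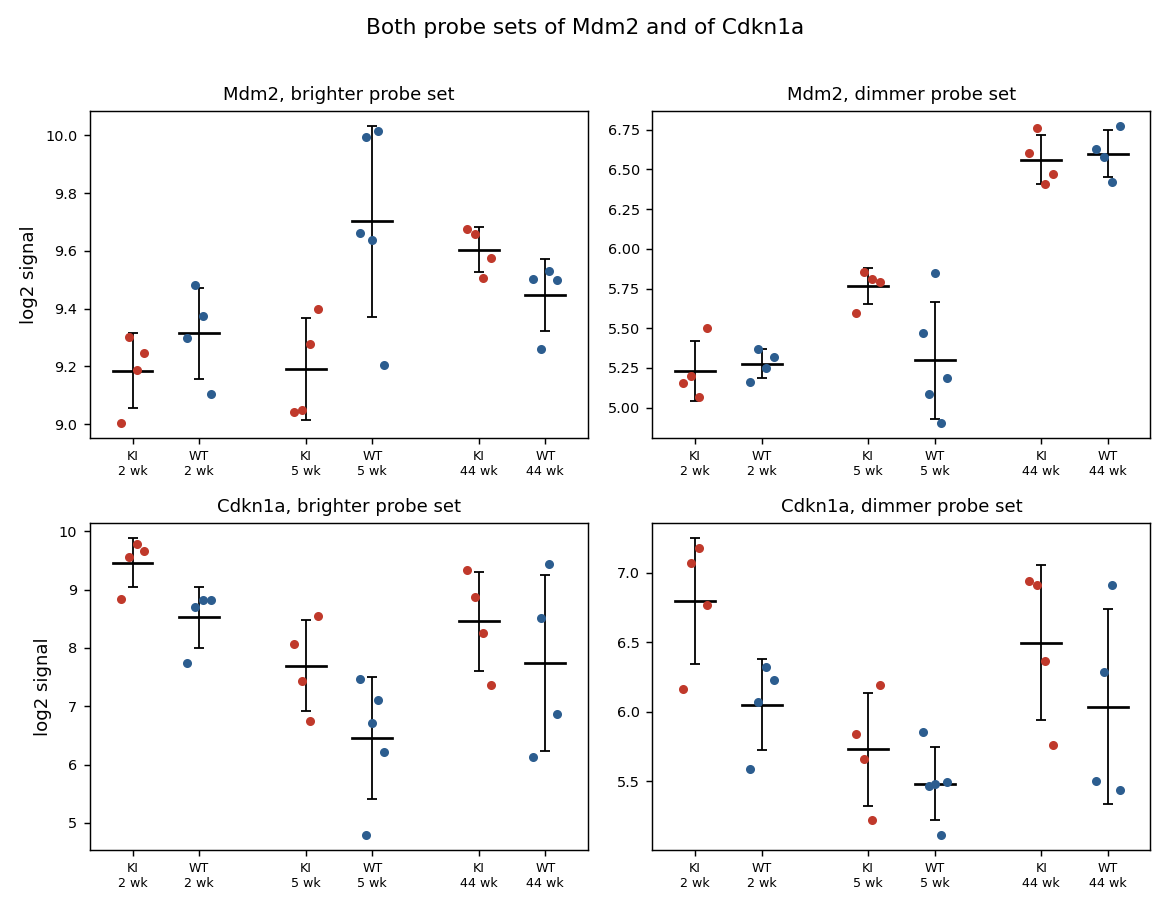
Log2 signal of both probe sets of *Mdm2* (top) and *Cdkn1a* (bottom), the brighter left and the dimmer right, in every array, KI red left of WT blue at 2, 5 and 44 weeks, with group means and 1 SD whiskers (n = 4, and 5 for WT at 5 weeks). The *Mdm2* probe sets differ in direction at 5 weeks (-0.51 and 0.47 for KI minus WT), while those of *Cdkn1a* move together (r = 0.87).

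Over age, the brighter *Mdm2* probe set rose by 0.39 ± 0.13 in WT at 5 against 2 weeks (limma adjusted p = 0.0287) and differed by 0.01 ± 0.14 in KI. In KI it rose at 44 weeks, by 0.41 ± 0.14 against 5 weeks (0.0479) and by 0.42 ± 0.14 against 2 weeks (0.0283), where WT differed by -0.26 ± 0.13 and 0.13 ± 0.14. The genotype effect at 44 minus 5 weeks was 0.67 ± 0.19 and did not pass (adjusted p = 0.105; 0.0033 without WT array 10 of 5 weeks). The KI call at 44 against 5 weeks was lost in 18 of 25 fits that left out 1 array, and at 44 against 2 weeks without KI array 19 or 21 of 2 weeks or 31 or 32 of 44 weeks. The WT call was lost without WT array 1 or 5 of 2 weeks or 7 or 9 of 5 weeks. The WT age comparison and the 5-week genotype comparison share the 5 WT arrays of 5 weeks.

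*Ccng1*, the gene of cyclin G1, was higher at the later ages in WT by its brightest probe set. At 2 weeks it was 11.10, 11.13, 11.28 and 11.17 in KI, against 10.76, 10.97, 11.22 and 11.11 in WT. At 5 weeks it was 11.02, 11.12, 11.15 and 11.13 in KI, against 11.40, 11.50, 11.32, 11.33 and 11.10 in WT. At 44 weeks it was 11.42, 11.41, 11.27 and 11.23 in KI, against 11.54, 11.48, 11.65 and 11.31 in WT. The WT arrays at 44 weeks lay above all WT arrays at 2 weeks, and at 5 weeks WT array 10 lay among the KI arrays. In WT the difference was 0.32 ± 0.10 at 5 against 2 weeks (limma adjusted p = 0.0164; 0.0776 without WT array 1 of 2 weeks) and 0.49 ± 0.10 at 44 against 2 weeks (0.0012). In KI it was -0.06 ± 0.10 and 0.16 ± 0.10, neither of which passed. At 44 against 5 weeks it was 0.23 ± 0.10 in KI (adjusted p = 0.139), where the ages did not overlap, and 0.17 ± 0.10 in WT (0.237). The other 2 probe sets of *Ccng1* gave 0.35 and 0.30 for WT at 5 against 2 weeks, which did not pass (adjusted p = 0.149 and 0.337). For WT at 44 against 2 weeks they gave 0.71 and 0.95 and passed (0.00782 and 0.00498). The dimmest of the 3 was also called higher in KI, by 0.66 at 44 against 2 weeks (0.0457) and by 0.71 at 44 against 5 weeks (0.0493). KI minus WT was 0.16 ± 0.10 at 2 weeks, -0.23 ± 0.10 at 5 weeks (adjusted p = 0.1) and -0.17 ± 0.10 at 44 weeks. The 5-week difference passed without WT array 10 (-0.28, adjusted p = 0.0275), and the change of the genotype effect between 2 and 5 weeks was -0.38 ± 0.14 (adjusted p = 0.169).

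**Figure D4:**
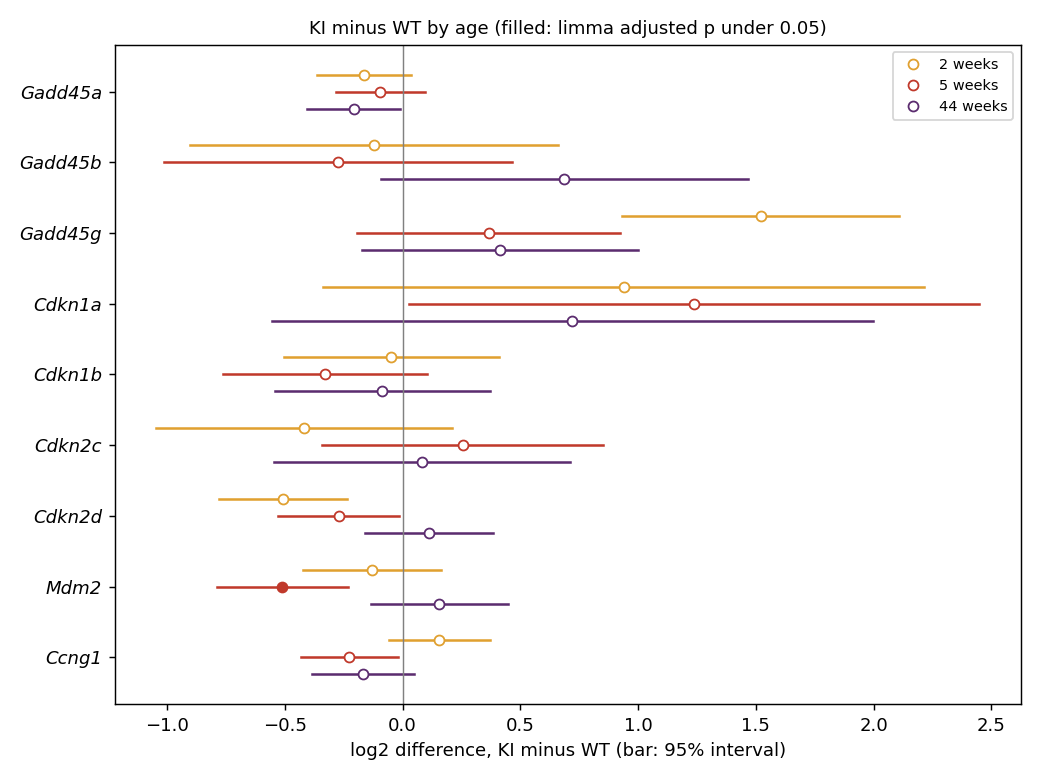
Difference of KI minus WT (log2 scale, x axis) for each gene at 2 (yellow), 5 (red) and 44 weeks (purple), with limma's 95% interval; filled points have an adjusted p under 0.05. The filled point is *Mdm2* at 5 weeks (-0.51); *Gadd45g* at 2 weeks (1.52) has an interval clear of 0 but an adjusted p of 0.257.

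Genotype calls among the 9 members are set here beside those of all genes, and no difference from that background is read from them. Averaged over the ages 1 of 9 was called (5.32% of all genes). At 2 weeks limma called 0 of 9 members and 0 of 11968 genes, with 2 members and 613 genes at an unadjusted p under 0.05. Arrays of the genotypes did not overlap at 2 weeks for 3 members, where 2.9% of all genes did not: *Gadd45g* and *Cdkn1a* stood higher in KI and *Cdkn2d* lower. At 5 weeks 1 of 9 was called (22% of all genes), and 1 did not overlap (12%). At 44 weeks 0 of 9 were called (0.0251% of all genes, 0.0167% higher and 0.00836% lower, with 1 member and 762 genes at an unadjusted p under 0.05), and 0 did not overlap (2.74%). The median of the members' differences was -0.12 at 2 weeks (all genes -0.02), -0.23 at 5 weeks (0.06) and 0.11 at 44 weeks (0.01). The interaction between 2 and 5 weeks called 0 members (0.0251% of all genes), and the other 2 interactions called no gene at all, with 2335 genes (44 minus 5 weeks) and 359 genes (44 minus 2 weeks) at an unadjusted p under 0.05.

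Calls of the members over age are likewise set beside those of all genes. In KI 2 of 9 were called at 5 against 2 weeks (13.7% of all genes), 1 higher (5.4%) and 1 lower (8.29%). At 44 against 5 weeks 2 were called in KI (16.8%), 2 higher (8.11%) and 0 lower (8.64%). At 44 against 2 weeks 4 were called in KI (30.2%), 3 higher (14.3%) and 1 lower (15.9%). In WT 5 of 9 were called at 5 against 2 weeks (33.9%), 3 higher (12.2%) and 2 lower (21.7%). At 44 against 5 weeks 1 was called in WT (20.1%), 0 higher (11.3%) and 1 lower (8.85%). At 44 against 2 weeks 5 were called in WT (31.6%), 3 higher (13.6%) and 2 lower (18%). The shares of members lay near those of all genes in some of these and above them in others; with 9 genes, no difference from the background is read from them. *Gadd45a* was called higher and *Gadd45g* lower against 2 weeks in all 4 of these comparisons. Arrays of the ages did not overlap for 3 members in KI and 3 in WT at 5 against 2 weeks, where 25.2% and 16.7% of all genes did not. Those counts were 3 and 1 at 44 against 5 weeks (25.8% and 12.1%), and 4 and 4 at 44 against 2 weeks (34.8% and 27.6%). Comparisons within a genotype share arrays at the common age.

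**Figure D5:**
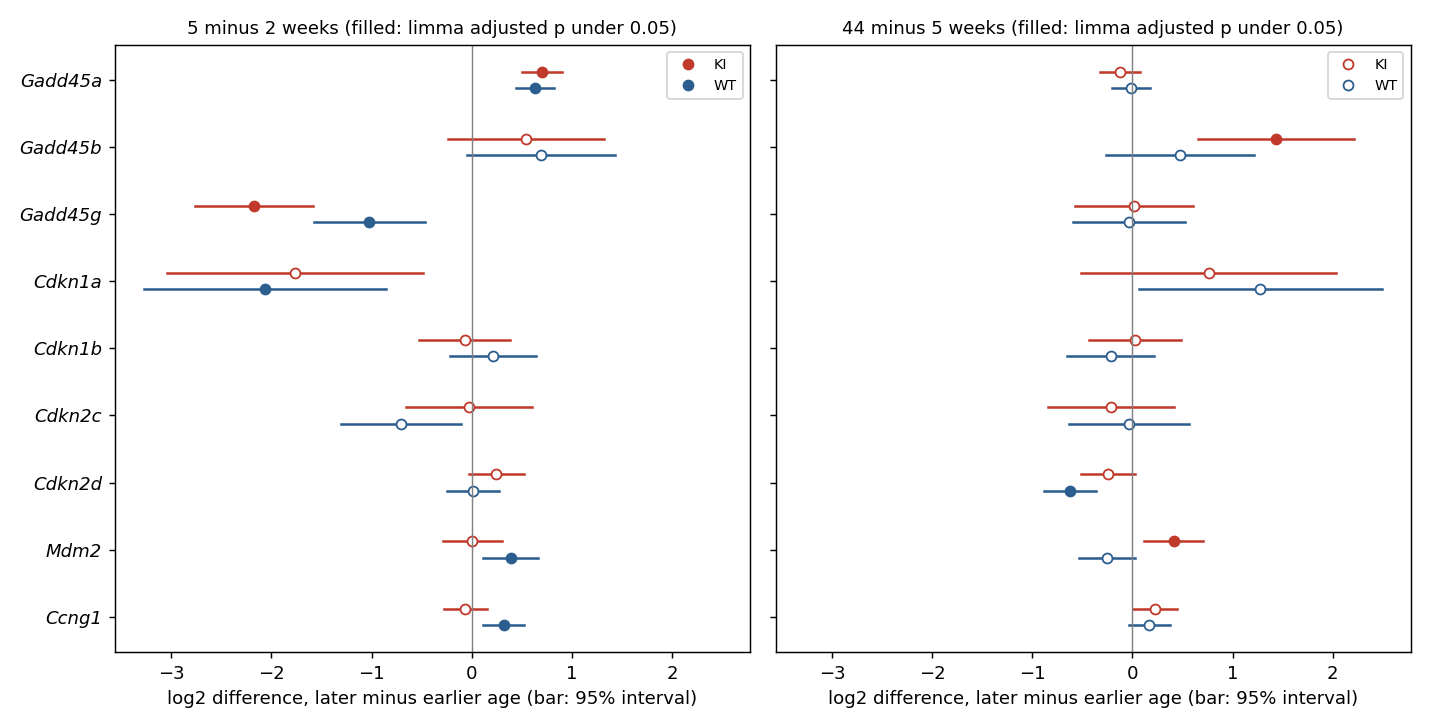
Difference of the later minus the earlier age (log2 scale, x axis) for each gene at 5 minus 2 weeks (left) and 44 minus 5 weeks (right), KI red above WT blue, with limma's 95% interval; filled points have an adjusted p under 0.05. *Gadd45a* and *Gadd45g* are filled in both genotypes on the left, and on the right the filled points are *Gadd45b* and *Mdm2* in KI and *Cdkn2d* in WT.

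Other genes of the p53 response were read from lists written with earlier results of these data known. Of 15 tested genes listed as p53 targets for arrest and repair, 0 were called higher and 6 lower in KI at 5 weeks (14.3% and 7.75% of all genes). The list median was -0.30 against 0.06 over all genes. The genes called lower included *Rrm2b*, a ribonucleotide reductase subunit (-0.58 ± 0.13, limma adjusted p = 0.00484), *Ei24* (-0.37 ± 0.09, 0.00787), *Zmat3*, an RNA-binding protein (-0.36 ± 0.11, 0.0238), and *Sesn3*, a sestrin (-0.47 ± 0.14, 0.0241). The sestrin genes *Sesn1* and *Sesn2* of the same list were not called (-0.30 ± 0.20, 0.267, and 0.37 ± 0.30, 0.382). Whether p53 controls each listed gene in these cells was not tested. Of 10 targets that promote cell death, 2 were called higher (14.3% of all genes), *Siva1* (0.51 ± 0.15, 0.0235) and *Bid* (1.12 ± 0.39, 0.0416). Of 12 regulators of p53, 1 was called (22% of all genes), the checkpoint kinase gene *Chek2* (0.81 ± 0.24, 0.0216). *Trp53*, the gene of p53 itself, and the p53 target *Bax* had no probe set with a single gene symbol and were not analysed. At 2 and at 44 weeks no gene of any of these lists was called between genotypes. The 5-week calls rest on the same 5 WT arrays as that of *Mdm2*. Without WT arrays 7, 8 and 9, and likewise with the tubule marker covariate, 0 genes of these 3 lists were called at 5 weeks; over all genes the calls were 1 and 13, against 2638 in the fit of all arrays.

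Over age the listed p53 targets went both ways. At 5 against 2 weeks, 1 of the 15 arrest and repair targets was called higher and 2 lower in KI (5.4% and 8.29% of all genes), and 4 higher and 3 lower in WT (12.2% and 21.7%). Without WT arrays 7, 8 and 9 the WT counts were 0 higher and 1 lower (*Phlda3*). *Phlda3*, an inhibitor of Akt, fell in both genotypes (-0.82 ± 0.22 in KI, limma adjusted p = 0.018, and -1.59 ± 0.21 in WT, 2.29e-05), as did the kinase gene *Plk2* (-0.77 ± 0.26, 0.0492, and -1.03 ± 0.24, 0.00266). *Tigar*, a regulator of glycolysis, rose in both (0.58 ± 0.18, 0.0338, and 0.70 ± 0.17, 0.0033). At 44 against 5 weeks, 4 of 15 were called higher and 1 lower in KI (8.11% and 8.64% of all genes), and 2 higher and 0 lower in WT (11.3% and 8.85%); *Ddb2*, a DNA damage sensor, rose in both (0.73 ± 0.17, 0.00655, and 0.58 ± 0.16, 0.0161). Among death targets *Trp53i11* rose in both genotypes at 44 against 5 weeks (0.94 ± 0.26, 0.0181, and 1.13 ± 0.25, 0.00372). *Pmaip1*, the gene of the BH3 protein Noxa, rose there in KI (1.18 ± 0.25, 0.00311). Its difference in WT just missed the threshold (0.66 ± 0.23, 0.0502), and at 44 against 2 weeks it was called higher in both genotypes. *Apaf1* rose at 44 against 5 weeks in KI (0.73 ± 0.24, 0.039) and did not pass in WT (0.19 ± 0.23, 0.57). In WT *Siva1* rose there (0.45 ± 0.15, 0.0397) and *Aen* fell (-0.44 ± 0.11, 0.00651). At 5 against 2 weeks *Perp* fell in KI (-1.95 ± 0.36, 0.00115) and in WT (-0.998 ± 0.34, 0.0267). In WT *Siva1* also fell between these ages (-0.66 ± 0.15, 0.00226), while *Pmaip1* rose (0.74 ± 0.23, 0.0182). These values are from the fit of all arrays. Without WT arrays 7, 8 and 9, 1 arrest and repair target (*Sfn*) and 1 death target (*Trp53i11*) were called in WT at 44 against 5 weeks.

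Proliferation genes that were called between 2 and 5 weeks were lower at 5 weeks, and genes of the kinases and cyclins went both ways. Of 15 proliferation genes tested, 4 were called lower at 5 against 2 weeks in KI and 12 in WT, and 0 higher in either, with medians of -0.57 and -0.997. Of all genes, 8.29% in KI and 21.7% in WT were called lower there. The WT count was 2 without WT arrays 7, 8 and 9. *Mki67*, a marker of cycling cells, differed by -1.08 ± 0.32 in KI (limma adjusted p = 0.0281) and -1.50 ± 0.30 in WT (0.000832), and *Mcm5*, a subunit of the replicative helicase, by -0.73 ± 0.16 (0.00466) and -1.01 ± 0.15 (6.76e-05). Of 19 kinase, cyclin and Rb pathway genes, 0 were called in KI (13.7% of all genes), and 1 higher and 5 lower in WT (12.2% and 21.7%); without the same 3 arrays 1 was called each way in WT. *Cdk1*, the mitotic kinase, fell in WT (-1.44 ± 0.32, 0.00179), and *E2f3*, a transcription factor gene of the Rb pathway, rose (0.79 ± 0.16, 0.00098); it is named as the single call in that direction, chosen after its values were seen. *Cdk6*, a partner of the D-type cyclins, rose at 44 against 5 weeks in KI (0.72 ± 0.14, 0.00161) and in WT (0.92 ± 0.13, 9.06e-05). Among the 3 other inhibitors tested, *Cdkn1c*, the gene of p57, rose in KI at 5 against 2 weeks (0.49 ± 0.15, 0.031) and in WT at 44 against 5 weeks (0.61 ± 0.14, 0.00541), and *Cdkn3*, a phosphatase gene, fell in WT at 5 against 2 weeks (-1.36 ± 0.30, 0.00153). Neither WT call passed without WT arrays 7, 8 and 9. Between genotypes at 5 weeks 1 of the 19 was called higher, *Cdk4* (0.47 ± 0.11, 0.00743), and 0 lower (14.3% and 7.75% of all genes); without WT arrays 7, 8 and 9, or with the tubule marker covariate, 0 were called.

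Partners of the Gadd45 proteins and other arrest genes showed a few calls. At 5 weeks, of 11 partners and stress kinase genes, 2 were called higher in KI and 1 lower (14.3% and 7.75% of all genes). These were *Gadd45gip1*, whose product binds Gadd45 proteins (0.66 ± 0.15, limma adjusted p = 0.00634), *Ddit3*, a stress transcription factor (0.76 ± 0.27, 0.0461), and the kinase gene *Mapk9* (-0.71 ± 0.15, 0.00419). Of 12 Foxo, Klf and related arrest genes, 0 were called higher and 2 lower in KI at 5 weeks: *Gas1* (-0.87 ± 0.28, 0.0307) and *Foxo4* (-0.36 ± 0.13, 0.0475). Neither list had a call at 5 weeks without WT arrays 7, 8 and 9 or with the tubule marker covariate. *Cebpd*, a transcription factor gene of that list, fell at 5 against 2 weeks in KI (-1.81 ± 0.25, 0.000136) and in WT (-2.08 ± 0.24, 5.78e-06), as *Gadd45g* did.

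The genes most like the 3 members of widest range were found by Pearson correlation over the 25 arrays among the genes kept. For *Gadd45g* they were *Sim2* (0.86), *Pantr1* (0.85) and *Eaf2* (0.85). *Pantr1*, for one, averaged 10.46 ± 0.23 in KI and 9.56 ± 1.64 in WT at 2 weeks (SD, n = 4 each), a gap within the WT spread. Its means were 6.53 in KI and 6.36 in WT at 5 weeks, then 6.67 in KI and 6.71 in WT at 44 weeks. For *Gadd45b* they were *Rlf* (0.85), *Tspan2* (0.85) and *Dcun1d3* (0.84), and for *Cdkn1a* they were *Zfp568* (0.78), *Sgk1* (0.77) and *Slc45a3* (0.76). *Sgk1*, a kinase gene known to respond to glucocorticoids, averaged 11.73 in KI and 11.31 in WT at 2 weeks; its means were 10.91 in KI and 10.61 in WT at 5 weeks, then 11.25 in KI and 10.95 in WT at 44 weeks. *Gadd45g* and *Cdkn1a* had a correlation of 0.63 with each other over the arrays and 0.21 within groups, and *Mdm2* and *Ccng1* had 0.56 and 0.43. The likeness describes these arrays, which share groups and ages.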

How the data were processed

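The 25 arrays are an Affymetrix mouse design. Per the labels' protocols, polysomal RNA from podocytes was amplified in 1 round with NuGEN WT-Ovation and labelled with the Encore Biotin Module. The values the authors deposited are on a log2 scale, 1 for each probe set on each array. The base was inferred from their range of 1.86 to 13.62: read as natural logs, the top value would be an intensity of 819853, over the scanner limit of 65535. The method of summarizing and normalizing probes was not given in the sources used here. Array medians lay between 4.82 and 4.99; precision is limited by the number of arrays.

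Of 45141 probe sets, 28898 had 1 gene symbol in the annotation, 551 had several and 15692 were unnamed; symbols were brought up to date by Entrez identifier (99.3% matched). Each of 17097 genes took its brightest probe set, and the dimmest 30% (mean under 4.60) were left out. Groups came from the titles. limma 3.58.1 in R 4.3.3 (lmFit, eBayes) fitted 6 group means to all arrays, with 19 residual and 3.05 prior degrees of freedom, for 13 comparisons. A gene was called at a Benjamini-Hochberg adjusted p under 0.05 over 11968 genes. The code was tested on simulated data. Tables and figures were made with Python 3.11.15 and pandas 2.3.3.

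The members and lists were chosen with earlier results of these data known. The rule for named genes takes all 9 members in every comparison, and of each other list up to 4 genes by smallest adjusted p among those called at 5 weeks between genotypes or over age; the text gives a part of these values. Genes of like pattern are the 3 with the highest correlation to each of the 3 members of widest range. Alternatives, 13 beside leaving out each array, changed probe set summary, normalization, filter, prior, weights, covariates, arrays and probe set.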

Additional observations from a re-analysis of the deposited data

Results flagged for a closer look

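In 54 groups of arrays (9 genes in 6 groups), 4 held an array far from the others by Dixon's test, where chance gives about 5% of groups. In WT at 2 weeks, array 1 had *Gadd45a* at 12.22, above the others at 11.83 to 11.90, and *Cdkn1a* at 7.75, below the others at 8.70 to 8.82. That array also had the highest podocyte marker mean of its group, 11.10. In KI at 5 weeks, array 25 had *Cdkn2c* at 5.71, below the others at 6.81 to 6.90. In WT at 44 weeks, array 16 had *Mdm2* at 9.26, below the others at 9.50 to 9.53.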

How the results depend on the processing

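The counts of the 9 members called depended on the setting. Averaging a gene's probe sets gave 0 (in place of 1) for KI against WT at 5 weeks, 3 (in place of 5) for WT at 5 against 2 weeks and 2 (in place of 1) for WT at 44 against 5 weeks. Quantile normalization gave 2 at 5 weeks and 2 for the average over ages (1 each before), and 1 (in place of 2) for KI at 44 against 5 weeks; centring on array medians gave 3, 3 and 1. A trended robust prior gave 2 for the average. Array weights gave 3 at 5 weeks, 3 for the average, 2 for WT at 44 against 5 weeks, and 1 and 3 (in place of 0) for the genotype effect at 5 minus 2 and at 44 minus 5 weeks. The tubule covariate gave 0 at 5 weeks and 0 for the average. Fitting only the arrays compared gave 0 at 5 weeks and 3 for WT at 5 against 2 weeks. Without WT arrays 7, 8 and 9 of 5 weeks the counts were 0 at 5 weeks, 0 for the average, 1 for WT at 5 against 2 and 0 for WT at 44 against 5 weeks. KI at 44 against 5 weeks had 1 with no filter and with the Y-linked, Gapdh or actin covariate, and WT at 5 against 2 weeks had 2 with the Gapdh covariate. Leaving out 1 array gave 0 to 1, 1 to 2, 0 to 0 and 1 to 3 members for KI against WT at 2, 5 and 44 weeks and averaged; 2 to 3, 0 to 2 and 3 to 4 for KI at 5 against 2, 44 against 5 and 44 against 2 weeks; 3 to 6, 1 to 2 and 4 to 6 for the same ages in WT; and 0 to 2, 0 to 2 and 0 to 0 for the 3 interactions.

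*Mdm2* turned direction with its dimmer probe set, to 0.47 (limma adjusted p = 0.0256) for KI against WT at 5 weeks and 1.30 (6.08e-06) for WT at 44 against 5 weeks, and with the mean of both probe sets to 0.52 (0.00133) for WT at 44 against 5 weeks. Calls over all genes also moved: 2638 for KI against WT at 5 weeks became 4821 with array weights, 500 with only the arrays compared, 13 with the tubule covariate and 1 without the 3 WT arrays. Of the 2638, 1710 were higher in KI, against 1225 of 2574 after quantile normalization and 888 of 3627 after centring, which moved the median of all genes to -0.14, against 0.06. For the average, 478 of 637 calls were higher, against 317 of 643 and 382 of 1687. For WT at 5 against 2 weeks, 1457 of 4053 were higher, against 2278 of 4149 and 4062 of 5362. No paired analysis was possible because the numbers in the titles are unique to each array, so the groups share none. The causes of these shifts were not tested.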
